A study of Mus musculus with 7 samples.

Results

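The DEAD and DEAH box RNA helicases were taken as every listed gene whose symbol begins with Ddx or Dhx followed by a digit. This gave 53 of the 25908 entries that had a value in every library, 37 Ddx genes and 16 Dhx genes. The rule itself uses no measured value, although it was chosen with earlier results of these data known. The study asked how RNA G-quadruplexes (rG4s), structures that guanine-rich RNA folds into, are cleared while mouse oocytes resume meiosis, and used BYBX, a small molecule that binds and stabilizes rG4s. Transcript levels were measured by Smart-seq2 in 7 libraries, each made from a pool of 10 oocytes. The GV group held 2 libraries of germinal vesicle oocytes, which are arrested before meiosis resumes, and its labels give the genotype Control and the treatment NO, whereas the methods describe DMSO as the control treatment of GV oocytes too, so whether GV and MII + DMSO also differ in the solvent is not settled. The MII + DMSO group held 3 libraries of mature oocytes arrested at metaphase II after culture with the solvent (genotype Control, treatment DMSO). The MII + BYBX group held 2 libraries of oocytes cultured with BYBX (genotype Treat, treatment BYBX). The paper reports that fewer oocytes released a first polar body with BYBX, and that those reaching MII had abnormal spindles. How mature each pooled oocyte was is not given, so a delay in maturation and other effects of BYBX cannot be told apart. According to the methods, oocytes came from 4-week-old females on a C57BL/6 background, collected 44 h after an injection of pregnant mare serum gonadotropin, and were cultured in M16 medium. The paper places the MII stage at 16 h of culture in its spindle experiments, and the culture time of these libraries is not given. No deleted or edited allele is named for any group, and the batch of each library is not given in the sources used here. The dose of BYBX used for these libraries is not named in their methods, although a figure legend that draws on Smart-seq2 levels gives a dose. Nothing says which animals fed which pool, so the p-values measure only the spread between these libraries, which may be technical.

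DEAD and DEAH box proteins are named after the amino acids of a conserved motif with which they bind and split ATP. DEAD box members mostly pry open short RNA duplexes or clamp RNA in place, whereas DEAH box members tend to move along a strand and pull it out of a complex, and between them they serve splicing, ribosome assembly, mRNA export, translation initiation and mRNA storage and decay. A growing oocyte stockpiles maternal mRNA, transcription stops in the fully grown GV oocyte, and much of the stock is translated, deadenylated or degraded during maturation. DHX36, the best known rG4 resolvase, belongs to the DEAH box family.

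The values were FPKM, fragment counts corrected for gene length and sequencing depth, which the authors scaled to an added RNA spike-in. They summed over all entries to between 402113 and 489569 FPKM in GV, between 109732 and 127254 FPKM in MII + DMSO and between 201482 and 246710 FPKM in MII + BYBX. Every comparison between groups rests on that scaling, and the comparisons were therefore repeated on 2 other scales. They give each library the same total FPKM or centre it on its median of log2(FPKM + 1). Both reduce a shift shared by the whole transcriptome but leave part of it or reverse it. From GV to MII + DMSO the median log2 change over all tested entries was -1.83 as deposited, then -0.56 and 0.47. With median centring, genes of low level can be called higher after a large loss. Dhx34 and Dhx38 were, at 1.76% and 7.30% of their GV mean in MII + DMSO. Reverse transcription was primed with oligo-dT, so loss of a transcript, loss of its poly(A) tail and fewer intact oocytes in a pool cannot be told apart. All 10 oocyte markers on the list passed 1 FPKM in at least 1 library, although Figla was at most 0.114 FPKM in MII + DMSO. Of 14 granulosa and cumulus cell markers 3 (Cyp19a1, Inha and Nr5a2) passed 1 FPKM in any library, and the cumulus matrix gene Ptx3 was listed at 0 in all 7. The summed level of these 14 markers was 8.99 to 16.6 FPKM in GV, 1.80 to 2.31 FPKM in MII + DMSO and 3.83 to 4.16 FPKM in MII + BYBX, and its part in the results was not tested.

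Since BYBX acts on rG4s, the helicase transcripts that carry a predicted rG4 themselves are shown first. The longest coding transcript of each gene in GENCODE vM21 (assembly GRCm38, the mm10 of the deposited values) was searched on its own strand for 4 G runs, each 3 or more letters long and separated by 1 to 7 bases. All 53 helicase genes and 96.3% of the 9202 tested entries were matched to a transcript, and capitals mark the G runs.
Ddx17 (3′ UTR, chr15:79529661-79529676, minus strand): GGGaGGGtGGGtaGGG
Ddx25 (3′ UTR, chr9:35538965-35538985, minus strand): GGGagtGGGttGGGagtGGGG
Ddx39 (3′ UTR, chr8:83726808-83726826, plus strand): GGGagtGGGtGGGtaGGGG
Ddx39 (3′ UTR, chr8:83726830-83726859, plus strand): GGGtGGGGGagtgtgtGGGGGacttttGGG
Ddx6 (3′ UTR, chr9:44639535-44639552, plus strand): GGGGtGGGGtGGGGtGGG
Dhx29 (coding exon, chr13:112960191-112960213, plus strand): GGGGagagccGGGaGGGtccGGG
Dhx8 (coding exon, chr11:101738195-101738215, plus strand): GGGaccGGGaccGGGaccGGG
These 6 genes were the only helicases among the 45 tested with such a motif (13.3%, against 18.6% of all tested entries), and Ddx6 held 3 further copies in its 3′ UTR. None of the 45 had one in the 5′ UTR, where 7.87% of all tested entries did. Dhx36 itself had no match. With loops of up to 12 bases the number was 13 of 45 (28.9%, against 33.3% of all tested entries), and with runs of only 2 G it was all 45. A match describes the letters of a transcript, and folding was not measured in these libraries.

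A second short element was described because cytoplasmic polyadenylation of maternal mRNA uses U-rich elements close to the 3′ end. TTTTAT or TTTTAAT (written as DNA, on the transcript strand only, 2 letter strings that cannot start at the same base) was searched in the last 100 bases of the 3′ UTR, an element chosen after the data had been seen. It was found in 13 of the 43 tested helicases whose 3′ UTR was at least that long (30.2%, against 20.6% of all tested entries). The sites of the rG4 resolvase and of 4 helicases picked for their unequal levels in MII + DMSO follow, with the element in capitals.
Dhx36 (chr3:62468095-62468112, minus strand): TTTTATggttatgtcatt
Dhx36 (chr3:62468025-62468053, minus strand): catttttactgTTTTATgaataaagctgc
Ddx3x (chrX:13293953-13293973, plus strand): tggTTTTATtaaaataaaaag
Ddx4 (chr13:112598371-112598399, minus strand): caaatgtttgcTTTTATaatatacagatt
Ddx25 (chr9:35536647-35536669, minus strand): gatattaacctTTTTATtgaaaa
Ddx50 (chr10:62616015-62616043, minus strand): aaaaaaagcccTTTTATtgtctgttttta

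The summed level of the 53 helicases was 1382 and 969 FPKM in the GV libraries, 222, 221 and 209.7 FPKM in MII + DMSO, and 457 and 474 FPKM in MII + BYBX. The 3 groups did not overlap, with MII + BYBX between the other two. The mean in MII + DMSO was 0.185 of that in GV, and the mean in MII + BYBX was 2.14 times that in MII + DMSO and 0.396 of that in GV. With every library brought to the same total FPKM these ratios were 0.696, 1.15 and 0.803. The helicases made up 0.241% and 0.282% of all FPKM in GV, 0.165% to 0.202% in MII + DMSO and 0.185% and 0.235% in MII + BYBX.

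**Figure D1:**
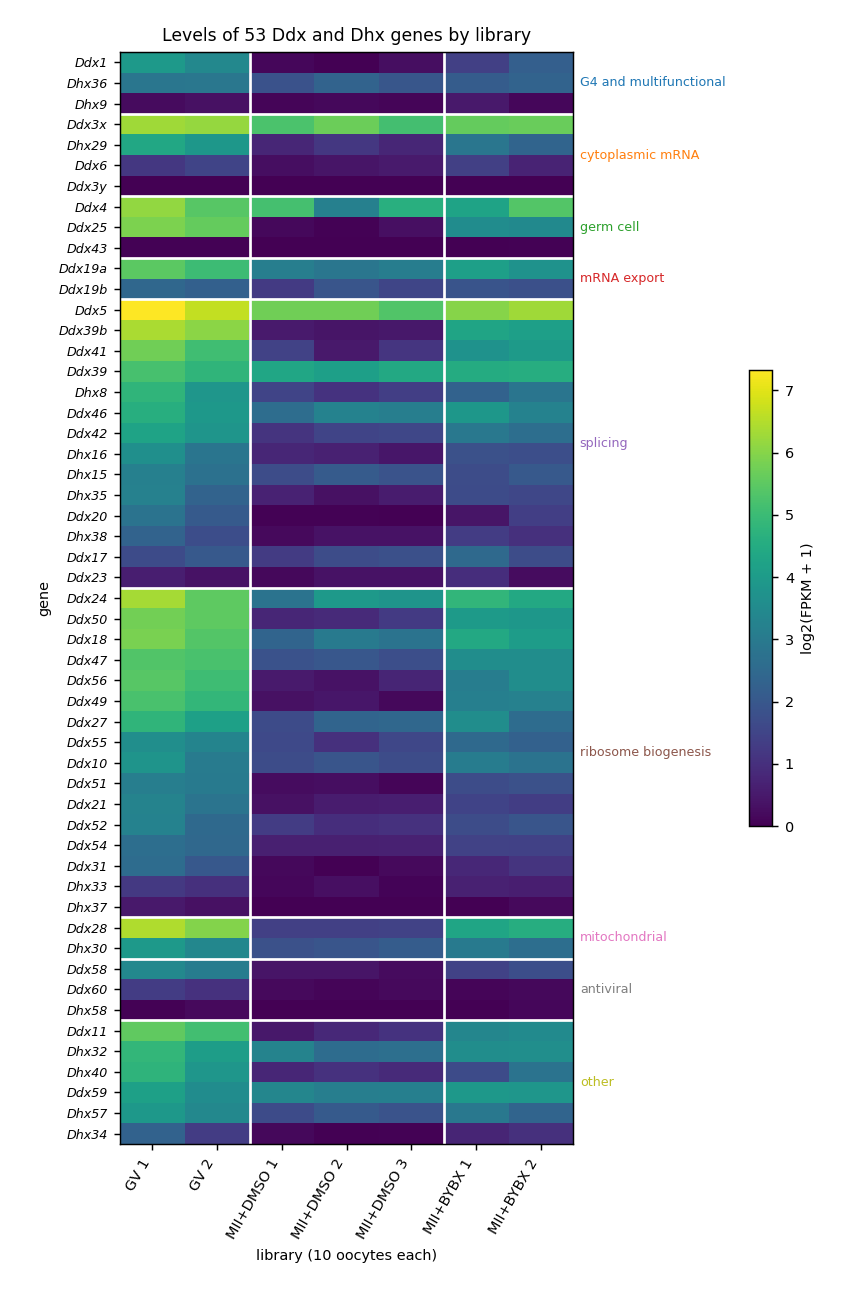
Level of each of the 53 Ddx and Dhx genes (rows, grouped by role and ordered by GV level) in the 7 libraries (columns), as log2(FPKM + 1) in colour. Most rows are brightest in the 2 GV libraries, darkest in the 3 MII + DMSO libraries and intermediate in the 2 MII + BYBX libraries, while Ddx5, Ddx3x, Ddx4 and Ddx39 stay bright throughout.

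On the deposited scale, where the total over all entries was lower too, fewer helicases reached 1 FPKM in MII + DMSO than in GV. In each GV library 47 of the 53 genes had at least 1 FPKM, against 25, 25 and 27 in the MII + DMSO libraries and 42 and 44 in the MII + BYBX libraries. The 3 most abundant helicases of a library took 23.98% and 24.5% of the summed helicase level in GV, 46.5% to 56.1% in MII + DMSO and 30.2% and 35.3% in MII + BYBX. Neither the share of all entries that reached 1 FPKM nor the share taken by the most abundant entries was counted. Whether these values are particular to the helicases was therefore not tested. By the mean of the 3 group means, the order from the top was Ddx5, Ddx3x, Ddx4, Ddx24, Ddx28, Ddx39b, Ddx18, Ddx39, Ddx50 and Ddx25. Single libraries of neighbours in this order often overlapped, since Ddx4 ranged from 8.19 to 69.2 FPKM over the 7 libraries. At the other end, Ddx3y, the copy of Ddx3x on the Y chromosome, was listed at 0 in all 7 libraries of these female cells.

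For the comparisons, log2(FPKM + 1) was modelled with limma over the 9202 entries that reached 1 FPKM in the average of their 3 group means, and a gene was called at a Benjamini-Hochberg adjusted p under 0.05 over all of them. This kept 45 helicases, 33 Ddx and 12 Dhx genes. The 8 below that level were Ddx23, Ddx3y, Ddx43, Ddx60, Dhx33, Dhx37, Dhx58 and Dhx9. A gene could pass through its GV level alone, and Ddx20, Ddx31 and Dhx34 had means above 1 FPKM only in GV. Passing in that way favours a call of lower than GV, so their calls are no independent support. The same holds for such genes among all tested entries. Log2 changes are differences of log2(FPKM + 1), which understate the change of genes near or under 1 FPKM.

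From GV to MII + DMSO, 44 of the 45 tested helicases were lower and 0 higher, as were 88.3% and 0.272% of all tested entries. At an unadjusted p under 0.05 in the same limma fit 0 helicases were higher. All entries were not counted at that threshold, here or in the later comparisons. The libraries of the groups did not overlap for 44 helicases, all lower in MII + DMSO, as for 92.5% of all entries (0.315% were higher without overlap). The median log2 change was -2.24 over the 45 helicases and -1.83 over all tested entries, and most of the transcriptome was lower with them. At the same total FPKM 25 helicases were lower and 6 higher (49.5% and 23.3% of all entries), and with median centring 16 were lower and 18 higher (26.7% and 48.8%). The 16 that were called lower on all 3 scales, again beside 26.7% of all entries, were Ddx1, Ddx11, Ddx18, Ddx25, Ddx28, Ddx39b, Ddx41, Ddx47, Ddx49, Ddx50, Ddx51, Ddx56, Ddx58, Dhx29, Dhx40 and Dhx8. None was called higher on all 3.

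From MII + DMSO to MII + BYBX, 36 of the 45 helicases were higher and 0 lower, against 65.2% and 0.0326% of all tested entries, and 0 were lower at an unadjusted p under 0.05 by limma. Both MII + BYBX libraries lay above all 3 MII + DMSO libraries for 38 helicases, as for 79.0% of all entries, and below them for 0 (0.293% of all entries). The median log2 change was 0.93 over the helicases and 0.84 over all. At the same total FPKM 22 were higher and 3 lower (39.9% and 8.22% of all entries), and median centring gave 8 higher and 13 lower (18.4% and 43.9%). The 8 helicases higher on all 3 scales were Ddx11, Ddx25, Ddx28, Ddx39b, Ddx41, Ddx49, Ddx50 and Ddx56, beside 18.4% of all entries.

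Between GV and MII + BYBX, 36 helicases were lower and 0 higher in MII + BYBX, against 69.2% and 0.315% of all tested entries, with 0 higher at an unadjusted p under 0.05 by limma. Both MII + BYBX libraries lay below both GV libraries for 41 of them, as for 82.3% of all entries, and above them for 0 (0.848% of all entries). The median log2 change was -1.30, against -0.99 over all. At the same total FPKM 8 were lower and 1 higher (13.3% and 5.30% of all entries), and with median centring 11 were lower and 3 higher (13.6% and 15.2%). Those lower on all 3 scales were Ddx11, Ddx21, Ddx25, Ddx28, Ddx39b, Ddx47, Ddx49 and Ddx58, beside 11.6% of all entries. These comparisons share their libraries, so the calls in one are not independent of the calls in another. For 35 of the 45 helicases (77.8%) both MII + BYBX libraries lay between the other groups, as for 71.1% of all entries.

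**Figure D2:**
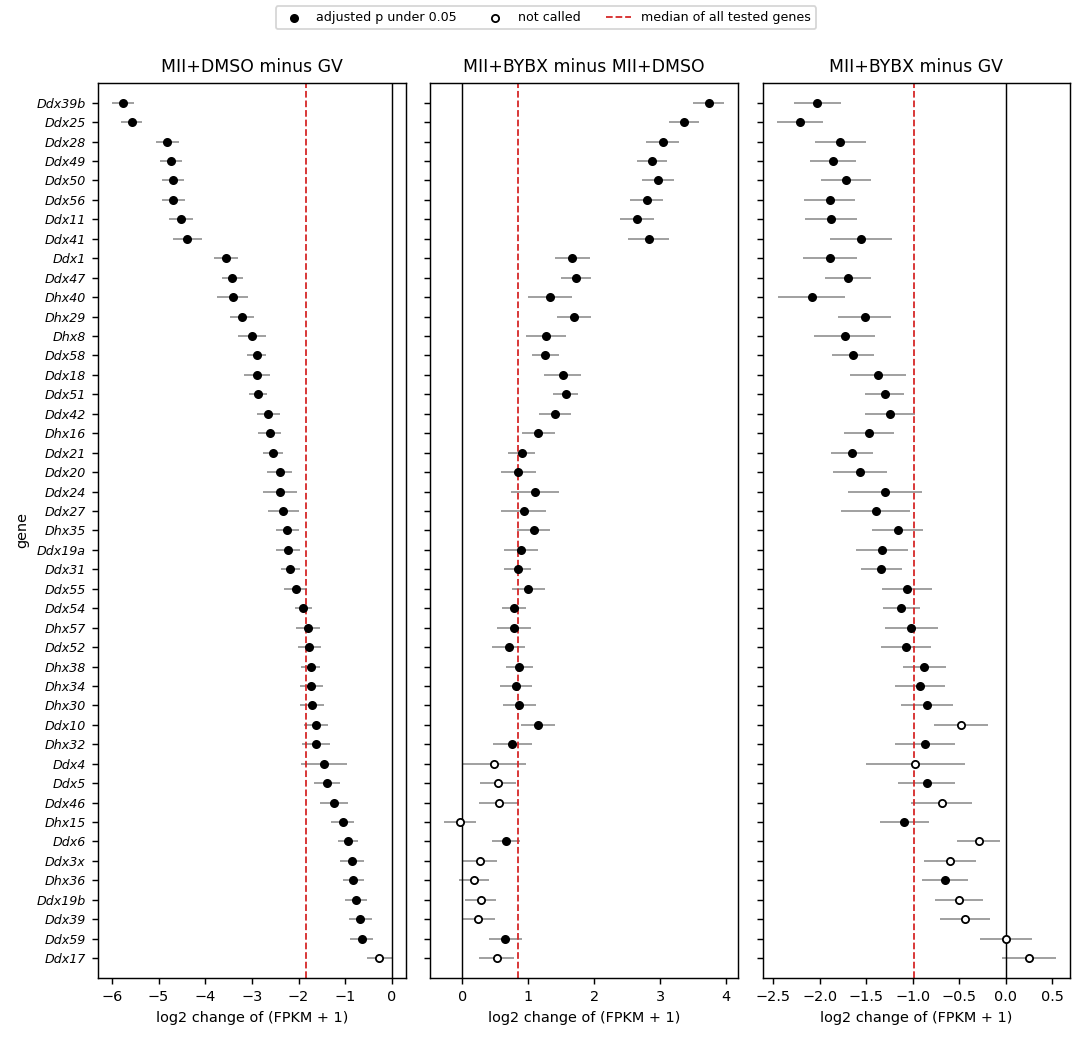
Log2 change of (FPKM + 1) for the 45 tested helicases in the 3 comparisons, points with bars of 1 standard error from limma, ordered by the change from GV to MII + DMSO on the deposited scale. Filled points were called, open points were not, and the dashed line is the median of the 9202 tested entries (-1.83, 0.84 and -0.99). A group of 8 genes from Ddx39b to Ddx41 stands farthest from 0 in the first 2 panels, and Ddx17 lies nearest to 0 in the first.

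Dhx36 (chr3:62468013-62507004, minus strand), the rG4 resolvase, was a transcript of modest level. It had 6.38 and 6.43 FPKM in GV, 2.63, 4.09 and 2.90 FPKM in MII + DMSO, and 3.42 and 4.02 FPKM in MII + BYBX. The GV libraries lay above all 5 others, and the MII groups overlapped. Its log2 change from GV to MII + DMSO was -0.83 (standard error 0.23, limma adjusted p = 0.00378), smaller than that of most genes, since 79.8% of all tested entries had a lower value. On the other scales that change had the opposite sign, 0.71 at the same total FPKM and 1.47 with median centring. The difference between the MII groups was 0.18 (standard error 0.23, 95% interval -0.31 to 0.67, limma adjusted p = 0.492), and it was -0.55 and -1.10 on the other scales, of which the last was called. MII + BYBX differed from GV by -0.65 (standard error 0.25, limma adjusted p = 0.033), a call that was lost when the third MII + DMSO library or any 1 of the GV or MII + BYBX libraries was left out (lowest limma adjusted p = 0.0532) and that was 0.16 and 0.37 on the other scales.

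The other helicases listed for unwinding G-quadruplexes and for broad roles behaved differently from each other. Dhx9, a nuclear helicase that also opens G-quadruplexes and RNA-DNA hybrids, did not pass 0.420 FPKM in any library and was not tested. Ddx1, which works in tRNA ligation and at DNA breaks, had 14.8 and 9.69 FPKM in GV, 0.0958, 0.00727 and 0.214 FPKM in MII + DMSO, and 1.62 and 3.68 FPKM in MII + BYBX. Its transcript was near 0 in all 3 MII + DMSO libraries and well above that in both MII + BYBX libraries. The log2 changes were -3.56 from GV to MII + DMSO (standard error 0.26, limma adjusted p = 1.97e-08) and 1.67 from MII + DMSO to MII + BYBX (standard error 0.26, limma adjusted p = 9.62e-05). The first was called on all 3 scales, and the second was 0.39 and not called with median centring.

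Of the cytoplasmic helicases that act on mRNA, 3 of 4 were tested. All 3 were lower in MII + DMSO than in GV, 2 were higher with BYBX than with DMSO, and 1 was lower with BYBX than in GV, beside 88.3%, 65.2% and 69.2% of all tested entries. With median centring 2 of the 3 had the opposite sign in each comparison. Ddx3x (chrX:13280970-13294052, plus strand), which helps ribosomes through structured leaders, had 76.6 and 70.5 FPKM in GV, 36.9, 50.04 and 34.4 FPKM in MII + DMSO, and 47.2 and 49.4 FPKM in MII + BYBX. It was the second most abundant helicase, and its MII groups overlapped. Its change from GV to MII + DMSO was -0.86 (standard error 0.25, limma adjusted p = 0.00589), but 0.99 at the same total FPKM and 1.44 with median centring. The difference between the MII groups was 0.27 (95% interval -0.28 to 0.82, limma adjusted p = 0.359), and -0.61 and -1.01 on the other scales.

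Ddx6, the helicase of P-bodies and of stored, translationally repressed mRNA, was barely above the level filter. It had 1.30 and 1.84 FPKM in GV, 0.202, 0.329 and 0.455 FPKM in MII + DMSO, and 1.61 and 0.666 FPKM in MII + BYBX. Its BYBX libraries stood above those with DMSO by 0.66 on the log2 scale (standard error 0.21, limma adjusted p = 0.0148), but the difference was -0.62 with median centring and the first MII + BYBX library carried most of it, since without that library it was 0.33 (limma adjusted p = 0.171). Dhx29, which assists initiation on structured 5′ leaders, went from 20.1 and 13.7 FPKM in GV to between 0.735 and 1.29 FPKM in MII + DMSO, and had 6.398 and 4.11 FPKM in MII + BYBX.

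The germ cell helicases were unlike each other. Ddx4, the mouse Vasa gene and a marker of the germ line, had 69.2 and 42.0 FPKM in GV, 34.8, 8.19 and 23.5 FPKM in MII + DMSO, and 17.9 and 40.6 FPKM in MII + BYBX. Its standard error in the limma fit was the largest of the 45 tested helicases, and the MII groups overlapped. The change from GV to MII + DMSO was -1.46 (standard error 0.49, limma adjusted p = 0.0124), yet it came to 0.37 at the same total FPKM and to 0.85 with median centring, and the call was lost without either GV library (limma adjusted p = 0.206 and 0.0513).

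Ddx25 (chr9:35536647-35558528, minus strand), known as a testis helicase needed for sperm formation, was abundant in GV oocytes with 58.0 and 47.5 FPKM. It had 0.120, 0.0227 and 0.227 FPKM in MII + DMSO and 10.9 and 10.1 FPKM in MII + BYBX. Hardly any of its transcript was left in the MII + DMSO libraries, while the MII + BYBX libraries lay close to each other. The log2 changes were -5.58 from GV to MII + DMSO (standard error 0.23, limma adjusted p = 2.56e-10), 3.36 from MII + DMSO to MII + BYBX (standard error 0.23, limma adjusted p = 7.67e-08) and -2.22 from GV to MII + BYBX (standard error 0.25, limma adjusted p = 5.91e-05), and all were called with the same sign on every scale. In linear terms the mean in MII + DMSO was 0.233% and the mean in MII + BYBX 19.9% of that in GV. Ddx43, also called a germ cell helicase, stayed at or under 0.0395 FPKM.

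Ddx19a and Ddx19b are neighbouring and closely similar genes on chromosome 8 whose products release mRNA-binding proteins at the nuclear pore. The authors kept uniquely mapped reads, so reads from stretches the 2 genes share may be missing from both. Ddx19a had 43.8 and 31.9 FPKM in GV, 7.73, 6.37 and 7.55 FPKM in MII + DMSO, and 16.4 and 12.3 FPKM in MII + BYBX, without overlap of any groups. Ddx19b had 4.51 and 3.73 FPKM in GV, 1.39, 2.80 and 1.92 FPKM in MII + DMSO, and 2.78 and 2.44 FPKM in MII + BYBX, with overlap of the MII groups. Their log2 changes from GV to MII + DMSO were -2.23 and -0.78 (limma adjusted p = 1.59e-06 and 0.00677), and both turned with median centring, to 0.08 and 1.53. Between the MII groups the changes were 0.89 and 0.28 (limma adjusted p = 0.0076 and 0.306), and -0.39 and -1.0 with median centring. Without the first GV library the decrease of Ddx19b was not called (-0.67, limma adjusted p = 0.0644), nor was the rise of Ddx19a without the first MII + BYBX library (0.69, limma adjusted p = 0.0905). A test of the difference between the 2 genes was not run.

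Splicing helicases numbered 14, of which 13 were tested. In MII + DMSO 12 of the 13 were lower than in GV, 8 were higher with BYBX than with DMSO, and 10 were lower with BYBX than in GV. These shares (92.3%, 61.5% and 76.9%) were near those of all tested entries (88.3%, 65.2% and 69.2%), and with median centring 7, 9 and 4 of the 13 had the opposite sign. The median log2 changes were -2.24, 0.87 and -1.16, beside -1.83, 0.84 and -0.99 over all. Their 3 most abundant members, Ddx5, Ddx39b and Ddx39, had unlike changes and are described in turn.

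Ddx5 (chr11:106780355-106789185, minus strand), a splicing and transcription cofactor and the most abundant helicase, had 160.1 and 101 FPKM in GV, 53.01, 52.6 and 39.6 FPKM in MII + DMSO, and 63.6 and 77.3 FPKM in MII + BYBX. No groups overlapped. Its change of -1.39 from GV to MII + DMSO (standard error 0.28, limma adjusted p = 0.000338) was 0.48 at the same total FPKM and 0.92 with median centring, and the difference of 0.54 between the MII groups was not called (95% interval -0.06 to 1.14, limma adjusted p = 0.104) and was -0.34 and -0.74 on the other scales.

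Ddx39 and Ddx39b encode closely related helicases that load the export machinery onto spliced mRNA, and their levels took different courses. Ddx39 (chr8:83715177-83726892, plus strand) had 35.6 and 26.5 FPKM in GV, 19.4, 16.7 and 20.6 FPKM in MII + DMSO, and 22.0 and 22.8 FPKM in MII + BYBX. Ddx39b (chr17:35241746-35253707, plus strand) had 83.7 and 65.7 FPKM in GV, 0.447, 0.324 and 0.396 FPKM in MII + DMSO, and 18.5 and 16.5 FPKM in MII + BYBX. Ddx39b was thus the higher of the pair in GV, far the lower in MII + DMSO and somewhat the lower in MII + BYBX.

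The log2 change from GV to MII + DMSO was -0.68 for Ddx39 (standard error 0.25, limma adjusted p = 0.0196) and -5.76 for Ddx39b (standard error 0.23, limma adjusted p = 2.56e-10). For Ddx39 it was 1.13 and 1.62 on the other scales, whereas for Ddx39b it was -4.54 and -3.46. The call for Ddx39 was lost without the first GV library (-0.47, limma adjusted p = 0.118) and without the second MII + DMSO library (-0.60, limma adjusted p = 0.0784). Between the MII groups Ddx39 differed by 0.24 (95% interval -0.29 to 0.78, limma adjusted p = 0.398), which was -0.62 and -1.04 on the other scales. Ddx39b differed by 3.74 (standard error 0.23, limma adjusted p = 4.51e-08), a rise called on every scale. It was the largest of any tested helicase in log2(FPKM + 1), but by the fold of means Ddx25 rose more (85.5 against 45.1). Of the exon bases of Ddx39, 17.4% lie opposite Adgre5, and the strand of reads is not kept by this kind of library, so reads from the 2 genes cannot be told apart there.

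**Figure D3:**
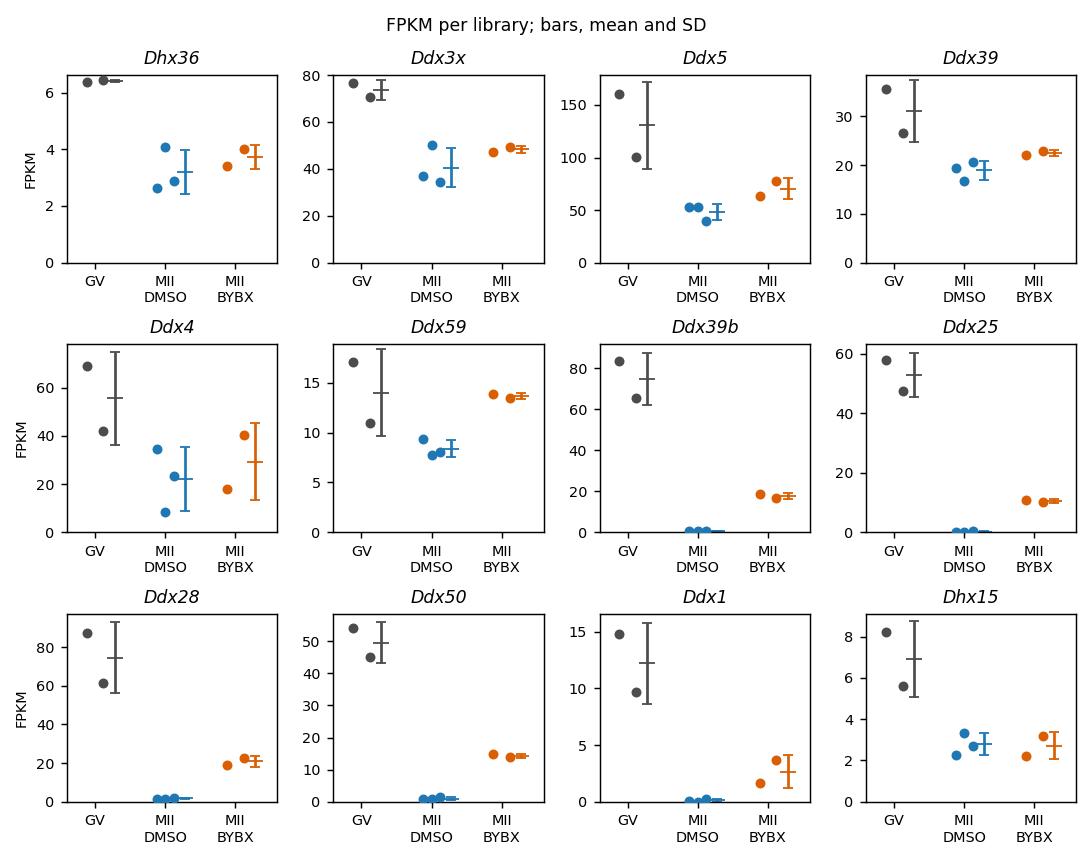
FPKM of 12 helicases in each library (points, linear axes that start at 0), with the mean and SD of each group beside the points (n = 2, 3 and 2 libraries). Dhx36, Ddx3x, Ddx5, Ddx39, Ddx4 and Ddx59 kept a level in MII + DMSO that can be read on the same axis as GV, while Ddx39b, Ddx25, Ddx28, Ddx50 and Ddx1 lie close to 0 there and above it in both MII + BYBX libraries, and Dhx15 has overlapping levels in the MII groups.

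Other splicing members, picked after their values were seen, marked the ends of the range. Dhx15, which takes spliceosomes apart, had 8.23 and 5.61 FPKM in GV, 2.28, 3.34 and 2.70 FPKM in MII + DMSO, and 2.24 and 3.16 FPKM in MII + BYBX. It was the tested helicase with the lowest change between the MII groups, -0.03 (95% interval -0.55 to 0.49, limma adjusted p = 0.913), which turned positive without the second MII + DMSO library (0.08) or the first MII + BYBX library (0.15), and was called lower with BYBX on both other scales (-0.74 and -1.31). Ddx17, a close relative of Ddx5, was called in none of the 3 comparisons on the deposited scale and had 2.18 and 3.12 FPKM in GV, 1.42 to 2.46 FPKM in MII + DMSO, and 4.64 and 2.29 FPKM in MII + BYBX. Its change from GV to MII + DMSO was -0.27, but 1.04 and 2.03 and called higher on the other scales (limma adjusted p = 0.00486 and 8.99e-05). The difference between the MII groups was 0.52, against -0.14 at the same total FPKM and -0.76, called lower, with median centring, and that between MII + BYBX and GV was 0.25, against 0.90 and, called higher, 1.28. Ddx41, a helicase of the late spliceosome, had a course like that of Ddx39b, with 52.8 and 32.8 FPKM in GV, 0.421 to 1.73 FPKM in MII + DMSO, and 12.2 and 14.8 FPKM in MII + BYBX, and 17.4% of its exon bases lie opposite the antisense gene Gm46416.

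The largest group was that of ribosome biogenesis, 16 genes of which 14 were tested. All 14 were lower in MII + DMSO than in GV and all 14 were higher with BYBX than with DMSO, and 13 were lower with BYBX than in GV, with Ddx10 as the exception, against 88.3%, 65.2% and 69.2% of all tested entries. With median centring 5, 8 and 1 of the 14 had the opposite sign, and at the same total FPKM 0, 0 and 1 (Ddx10, from -0.48 to 0.39). The median log2 changes of the 14 were -2.48, 1.13 and -1.36, beside -1.83, 0.84 and -0.99 over all tested entries. Levels spread widely in MII + DMSO, where Ddx10 kept 24.5% of its mean GV level, Ddx24 kept 18.0% and Ddx49 kept 0.765%.

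Ddx24, the most abundant of them, had 80.1 and 44.3 FPKM in GV, 5.89, 14.7 and 13.02 FPKM in MII + DMSO, and 27.2 and 20.5 FPKM in MII + BYBX. Its groups did not overlap, but its rise of 1.10 with BYBX (standard error 0.36, limma adjusted p = 0.017) was -0.18 with median centring and 0.90 and not called without the first MII + BYBX library (limma adjusted p = 0.105). Ddx18 had 57.5 and 40.2 FPKM in GV, 4.16, 7.01 and 5.90 FPKM in MII + DMSO, and 20.7 and 15.5 FPKM in MII + BYBX.

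Ddx50 (chr10:62615895-62651218, minus strand), which with its neighbour and relative Ddx21 acts in the nucleolus, had 54.0 and 44.995 FPKM in GV, 0.728, 0.816 and 1.36 FPKM in MII + DMSO, and 14.8 and 13.8 FPKM in MII + BYBX. The log2 changes were -4.69 (standard error 0.24, limma adjusted p = 8.14e-10) and 2.97 (standard error 0.24, limma adjusted p = 2.72e-07), called with the same sign on all 3 scales. Ddx21 had 8.75 and 6.08 FPKM in GV, at most 0.523 FPKM in MII + DMSO, and 1.77 and 1.52 FPKM in MII + BYBX.

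Ddx49 and Ddx56, both needed to process ribosomal RNA precursors, also had their lowest levels in MII + DMSO. Ddx49 had 36.8 and 27.9 FPKM in GV, 0.261, 0.358 and 0.124 FPKM in MII + DMSO, and 7.94 and 8.30 FPKM in MII + BYBX, although 29.8% of its exon bases lie opposite Homer3 and reads there cannot be assigned by strand. Ddx56 had 41.6 and 32.3 FPKM in GV, 0.445, 0.276 and 0.700 FPKM in MII + DMSO, and 7.55 and 11.05 FPKM in MII + BYBX. Their log2 changes were -4.73 and -4.69 from GV to MII + DMSO (limma adjusted p = 5.25e-10 and 1.06e-09) and 2.87 and 2.79 between the MII groups (limma adjusted p = 2.26e-07 and 6.36e-07), with the same sign on every scale.

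Both mitochondrial helicases fell from GV to MII + DMSO, were higher with BYBX than with DMSO and stayed below GV, as did 88.3%, 65.2% and 69.2% of all tested entries in each comparison, and with median centring the signs held for Ddx28 and turned for Dhx30. Ddx28 (chr8:106009621-106011882, minus strand), which helps build the large mitochondrial ribosomal subunit, had 87.5 and 61.7 FPKM in GV, 1.60, 1.62 and 1.74 FPKM in MII + DMSO, and 18.9 and 22.7 FPKM in MII + BYBX. In the first GV library it was second only to Ddx5 among the helicases, and its mean stood at 2.21% of its GV mean in MII + DMSO and 27.9% in MII + BYBX. The log2 changes of -4.81 and 3.04 (limma adjusted p = 7.87e-10 and 2.69e-07) and of -1.78 between GV and MII + BYBX (limma adjusted p = 0.000122) held on all 3 scales. Dhx30, which binds mitochondrial RNA granules, had 14.7 and 9.42 FPKM in GV, 2.54 to 3.41 FPKM in MII + DMSO, and 7.02 and 5.30 FPKM in MII + BYBX. Its log2 changes of -1.71, 0.86 and -0.85 were 0.59, -0.42 and 0.18 with median centring, the first of them called higher, and -0.11, 0.15 and 0.04 at the same total FPKM, none called.

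Of the 3 antiviral sensors only Ddx58, which encodes RIG-I, was tested, with 9.68 and 7.48 FPKM in GV, 0.169 to 0.342 FPKM in MII + DMSO, and 1.75 and 2.39 FPKM in MII + BYBX. Ddx60 was above 1 FPKM in the GV libraries only (1.49 and 1.06 FPKM) and was low in both MII groups, which overlapped (0.0630 and 0.119 FPKM with BYBX, 0.0671 to 0.144 FPKM with DMSO). Dhx58 stayed at or under 0.143 FPKM.

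The last 6 genes had no common role, and all of them fell from GV to MII + DMSO and rose with BYBX over DMSO, while 5 of them stayed below GV with BYBX, beside 88.3%, 65.2% and 69.2% of all tested entries. With median centring 4, 4 and 3 of the 6 had the opposite sign. Ddx59 was the exception in the last comparison and was picked for that. It had 17.1 and 10.9 FPKM in GV, 9.36, 7.75 and 8.02 FPKM in MII + DMSO, and 13.9 and 13.5 FPKM in MII + BYBX, so that both libraries with BYBX lay inside the range of the GV libraries. Its rise of 0.65 over MII + DMSO (standard error 0.25, limma adjusted p = 0.0364) was -0.17 and -0.63 on the other scales, and it was not called without the second MII + DMSO library, the third MII + DMSO library or either MII + BYBX library (0.60 to 0.67, limma adjusted p = 0.0869 to 0.127). Its decrease of -0.65 from GV to MII + DMSO (limma adjusted p = 0.0265) was 1.08 and 1.65 on the other scales and was -0.35 without the first GV library (limma adjusted p = 0.212). It was not called either without the second or the third MII + DMSO library (-0.60 and -0.62, limma adjusted p = 0.0766 and 0.0654). Dhx40 was its counterpart, with 26.1 and 13.4 FPKM in GV, 0.720, 1.05 and 0.831 FPKM in MII + DMSO, and 2.17 and 5.87 FPKM in MII + BYBX, and its difference of -2.09 between MII + BYBX and GV (standard error 0.36, limma adjusted p = 0.000274) was next to that of Ddx25 in size, but was -1.17 and -1.06 and not called on the other scales.

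The share of the decrease that was absent with BYBX was described on the linear FPKM scale, where 0 stands for the MII + DMSO mean and 1 for the GV mean. Over the 44 helicases lower in MII + DMSO than in GV its median was 0.255, beside 0.288 over the 8127 such entries. It ran from -0.018 for Dhx15 to 0.944 for Ddx59, followed downwards by Ddx6 (0.653) and Ddx10 (0.559). The value of Ddx6 rested on 1 library, being 1.03 with the first MII + BYBX library and 0.272 with the second. Dhx36 was at 0.161, Ddx25 at 0.198, Ddx39b at 0.230 and Ddx3x at 0.237, although single MII + BYBX libraries gave 0.0680 and 0.255 for Dhx36. For Dhx36, Ddx3x and both ends of the range, Dhx15 and Ddx59, there was no log2 decrease on the other 2 scales, so the share has no meaning for them there. The same held for Ddx4, Ddx5, Ddx19b, Ddx39, Ddx46 and Dhx32. With median centring it also held for Ddx6, Ddx10, Ddx19a, Ddx31, Ddx52, Ddx54, Ddx55, Dhx30, Dhx34, Dhx35, Dhx38 and Dhx57. At the same total FPKM the median was 0.472 over the 25 helicases that were then called lower, and no median over all entries was computed on that scale. The median helicase kept 9.01% of its GV level in MII + DMSO and 35.6% in MII + BYBX, beside 12.5% and 39.8% over all such entries. No test was run over the helicases as a set.

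**Figure D4:**
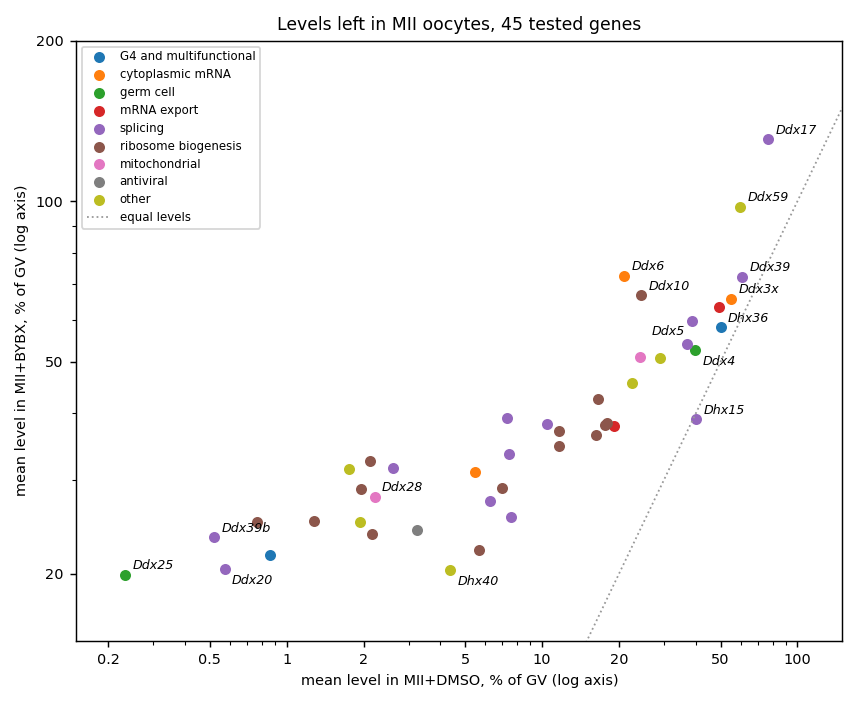
Mean level in MII + BYBX against mean level in MII + DMSO, each as a percentage of the GV mean, for the 45 tested helicases (log axes, colours by role, dotted line at equal levels). All but Dhx15 lie above the line, and while the MII + DMSO levels spread from 0.233% (Ddx25) to 76.8% (Ddx17), the MII + BYBX levels spread only from 19.9% to 131%.

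Sequence features were then set beside these changes, as a description over 45 genes that differ in level and length. The 6 helicases with a predicted rG4 had a median log2 change from GV to MII + DMSO of -1.97, from -5.58 (Ddx25) to -0.27 (Ddx17), and the 39 without one had -2.24. Between the MII groups the medians were 0.96 and 0.93, but 0.77 and 0.86 over all tested entries with and without a motif. The second contrast turned with loops of up to 12 bases, where the 13 helicases with a motif had medians of -1.62 and 0.76 in the 2 comparisons and the 32 without one -2.40 and 1.09. Among the 4 with the motif in the 3′ UTR shown above, Ddx39, Ddx17 and Ddx6 were among those with the smallest log2 decreases, and Ddx25 had the largest but for Ddx39b. Ddx6 was near the level filter, where log2 changes are understated. It kept 20.9% of its GV mean in MII + DMSO, against 60.8% for Ddx39 and 76.8% for Ddx17. The 13 helicases with the U-rich element had a median change from GV to MII + DMSO of -1.74 and the other 32 of -2.36, beside -1.25 and -1.99 over all tested entries with and without it. Between the MII groups the helicases had 1.08 and 0.91, whereas all tested entries had the opposite order, 0.58 and 0.92.

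Longer helicase transcripts tended to have smaller log2 decreases from GV to MII + DMSO (Spearman correlation of length with log2 change 0.327). With the log2 change between the MII groups the correlation was -0.335 (n = 45 genes, which share libraries and are not independent). GC content gave -0.289 and 0.325. Log2 changes on this scale understate the change of genes of low level, and level was not held fixed. Whether longer transcripts lost a smaller share of their level was therefore not tested. The correlations were not set beside those of all tested entries. The 8 helicases higher with BYBX on every scale were not of one length, from 1956 bases for Ddx56 to 6934 bases for Ddx25.

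Genes around the family were read from lists of related helicases and cofactors. Of 10 tested helicases of the same superfamily with other symbols, 8 fell from GV to MII + DMSO, 5 rose with BYBX over DMSO and 7 stayed below GV with BYBX, against 88.3%, 65.2% and 69.2% of all tested entries, and none was called the other way. Eif4a1 and Eif4a2, the cap-binding complex helicases, had 196 to 230 FPKM and 125 to 136 FPKM in GV, and 109 to 149.7 FPKM and 82.6 to 116 FPKM in MII + DMSO, more than any Ddx or Dhx gene there. Eif4a3, their relative in the exon junction complex, went from 191 and 134 FPKM to between 7.12 and 10.3 FPKM, with 25.0 and 46.4 FPKM in MII + BYBX.

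Of 8 tested DNA helicases that unwind G-quadruplexes, 7 fell from GV to MII + DMSO, 5 rose with BYBX over DMSO and 5 stayed below GV with BYBX, again beside 88.3%, 65.2% and 69.2% of all tested entries. Blm, Wrn and Dna2 were not called between the MII groups. Of 29 tested helicase cofactors, 25, 17 and 17 were called in the same directions and none in the others, so the counts of all 3 lists were near or below the shares of the transcriptome. The partners of the helicases above included the eIF4A cofactor gene Eif4h, which went from 194 and 129 FPKM in GV to between 0.539 and 0.914 FPKM in MII + DMSO and had 44.5 and 60.7 FPKM in MII + BYBX, and Nxf1, the export receptor loaded after Ddx39b, with 44.2 and 32.0 FPKM, then 0.545 to 0.735 FPKM, and 8.73 and 11.1 FPKM.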

How the data were processed

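Smart-seq2 libraries, each of 10 pooled mouse oocytes, were grouped by their labels. The authors trimmed reads with Trim Galore 0.6.7, aligned them to mm10 with HISAT2 2.2.1 and computed FPKM with Cufflinks 2.2.1 on UCSC gene models. The values were scaled to added ERCC RNA and, across batches, to the GV oocytes, and the authors deposited 1 FPKM value per entry and library. The factors are not stated and no ERCC entries are listed, so the scaling could not be repeated. Cufflinks keeps no whole reads, so depth is unknown and precision is that of 2 or 3 libraries a group. Of 25912 entries, 4 with a missing value were left out. limma 3.58.1 (R 4.3.3, lmFit, eBayes with an intensity trend) was fitted to log2(FPKM + 1) of all 7 libraries over the 9202 entries that reached 1 FPKM in the average of their group means, with Benjamini-Hochberg adjustment over all of them, and was tested on simulated data. Alternatives were a pseudocount of 0.1, a filter at 5 FPKM or none, both other scales, fits of only the groups compared, a replicate block, no trend and leaving out each library.

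The members, role groups and lists were chosen with earlier results of these data known. Members named by rule were Dhx36, the 10 of highest mean level, the 4 of largest called change per comparison and direction that reached 5 FPKM in the higher group without overlapping libraries, the pairs Ddx3x and Ddx3y, and Ddx19a and Ddx19b, and Ddx1, Ddx4, Ddx6 and Dhx9. All others were named after their values were seen. Protein sequences and the letters of the helicase motif were not analysed here.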

Additional observations from a re-analysis of the deposited data

How the results depend on the processing

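The number of libraries, 2 or 3 a group, limits every comparison, and the cause of each change below was not tested. The counts of helicases lower in MII + DMSO than in GV (44), raised with BYBX over DMSO (36) and below GV with BYBX (36) kept within 1.5 times with a pseudocount of 0.1, no level filter, fits of only the 2 groups compared and no intensity trend. Without a level filter, however, 52 helicases were tested and the counts were 46, 27 and 35, beside 12025, 5782 and 8336 of 18497 entries. A filter at 5 FPKM leaves fewer genes to test and drops Dhx36 and Ddx6. It gave 28, 23 and 22 of the 28 helicases tested, beside 4842, 3686 and 3779 of 5508 entries. At the same total FPKM they were 25, 22 and 8, with 6, 3 and 1 called in the opposite direction, and with median centring 16, 8 and 11, with 18, 13 and 3. Leaving out each MII + DMSO library in turn gave 42 to 44, 33 to 35 and 35 to 37, and 0 in the opposite directions. Beside these were 7862 to 7930, 5378 to 5578 and 6172 to 6392 of 9202 entries. Leaving out a GV or MII + BYBX library leaves a single library in that group, and counts from such fits are not given. The ratios of summed levels (0.185, 2.14 and 0.396) were 0.696, 1.15 and 0.803 at the same total FPKM, 0.116 and 2.98 for the first 2 without the 3 most abundant helicases, and 0.158 to 0.225, 2.10 to 2.18 and 0.337 to 0.480 without single libraries. The median share of the decrease absent with BYBX (0.255) was 0.266 at the 5 FPKM filter, 0.472 over 25 helicases at the same total FPKM, and 0.212 to 0.331 without single libraries, the extremes being without the second and the first GV library.

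For Dhx36, leaving out single libraries gave -0.98 to -0.73 from GV to MII + DMSO, 0.082 to 0.33 between the MII groups and -0.74 to -0.56 from GV to MII + BYBX. The last call was lost with a pseudocount of 0.1 (-0.77, limma adjusted p = 0.0582), with only the 2 groups fitted (-0.65, 0.0953), and without the third MII + DMSO library (0.0538) or any GV or MII + BYBX library (0.0532 to 0.128).

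Of the 45 tested helicases 11, 10 and 10 had another sign at the same total FPKM than on the deposited scale, and 23, 29 and 14 with median centring. For the helicases named by rule, Ddx59 and Dhx15, the changes that turned sign at the same total FPKM are given in the order MII + DMSO minus GV, MII + BYBX minus MII + DMSO and MII + BYBX minus GV: Dhx36 0.71, -0.55 and 0.16, Ddx3x 0.99, -0.61 and 0.38, Ddx5 0.48, -0.34 and 0.13, Ddx39 1.13, -0.62 and 0.51, Ddx19b 0.62, -0.37 and 0.24, Ddx4 0.37 and -0.37 and Ddx59 1.08 and -0.17 in the first 2, Dhx15 0.47 in the first and Ddx6 0.21 in the last. With median centring they were Dhx36 1.47, -1.10 and 0.37, Ddx3x 1.44, -1.01 and 0.43, Ddx5 0.92, -0.74 and 0.18, Ddx39 1.62, -1.04 and 0.59, Ddx19b 1.53, -1.0 and 0.53, Ddx4 0.85, -0.79 and 0.054, Ddx6 1.36, -0.62 and 0.73, Ddx19a 0.077 and -0.39 in the first 2, Ddx59 1.65 and -0.63 in the first 2, Dhx15 1.24 in the first and Ddx24 -0.18 in the second. Leaving out single libraries gave -0.085 to 1.05 for Ddx4 between the MII groups, negative without the second MII + BYBX library or the second MII + DMSO library (-0.079), and -0.62 to 0.032 for Ddx6 between GV and MII + BYBX, positive without the second MII + BYBX library. They gave -0.30 to 0.30 for Ddx59 between GV and MII + BYBX, negative without the second GV library or the first MII + BYBX library (-0.021), and -0.21 to 0.15 for Dhx15 between the MII groups, positive without the second MII + DMSO library (0.076) or the first MII + BYBX library. The 2 scalings shift the median of all tested entries between the MII groups from 0.84 to 0.34 and -0.44.

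A replicate block, with the library number as a term, gave 43, 32 and 35 helicases, beside 7777, 5266 and 5962 of 9202 entries. Under it Dhx36 was -0.79, 0.13 and -0.65, the last no longer called (limma adjusted p = 0.0681). The changes of Ddx59 under the block were -0.62 and 0.62 in the first 2 comparisons, neither called (limma adjusted p = 0.0795 and 0.106). Same-numbered libraries deviated together between GV and MII + DMSO (correlations over genes 0.487 and 0.282) and apart in the pairs with MII + BYBX (-0.601, -0.348 and -0.330). Whether a shared number marks a pairing or a batch was not tested. With the numbers of the MII + BYBX libraries exchanged, a pairing added after seeing the data, 38 helicases were lower with BYBX than in GV and 0 higher. Beside them 6688 of 9202 entries were lower and 57 higher.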
